A study of Mus musculus with 6 samples.

Results

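Mitochondrial protein import genes are those that encode the translocases, chaperones and peptidase which bring proteins made in the cytosol into mitochondria. They were taken by symbol: every listed gene whose symbol begins with Timm or Tomm followed by a digit, and Pam16, Dnlz, Grpel1, Grpel2, Pmpca, Pmpcb, Samm50, Mtx1 and Mtx2. This gave 34 of the 17680 listed genes. The kidneys came from 6 C57BL/6 mice of wild-type genotype (WT), 6 to 8 weeks old. In the LPS group 3 mice had received lipopolysaccharide, a component of bacterial walls given as a model of septic kidney injury, and in the Control group 3 mice had received PBS, in both cases intraperitoneally and 24 h before sampling. The libraries held between 29097558 and 33454344 counts and were made from whole kidney, so fewer cells of a type and less RNA per cell cannot be told apart.

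Nearly all mitochondrial proteins are encoded in the nucleus and enter through the TOM complex of the outer membrane. From there, proteins with a cleavable presequence pass through the TIM23 complex of the inner membrane and are pulled in by the PAM motor, and the processing peptidase MPP removes the presequence in the matrix. Metabolite carriers are guided across the intermembrane space by small TIM chaperones to the TIM22 complex, and barrel-shaped outer membrane proteins are inserted by the SAM complex. The kidney tubule, above all its proximal part, is rich in mitochondria and depends on them for the energy of reabsorption.

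The import genes changed little as a group. Of the 34 genes, 32 passed the filter on low counts, each with at least 399 counts in every library. In LPS kidneys 7 of them rose and 4 fell, together 34.4% of those tested, where 25.7% of all 14219 genes tested rose and 24.8% fell, together 50.5% (edgeR quasi-likelihood test, Benjamini-Hochberg adjusted over all genes, threshold 0.05). Changes of at least 1.5-fold were found for 1 gene that rose, Timm10, and 1 that fell, Pmpcb, where 14.2% and 15.8% of all genes tested did so. The median log2 fold change of the 32 genes was 0.05, with quartiles at -0.16 and 0.17, and that of all genes tested was 0.01, with quartiles at -0.40 and 0.36. The CPM of both groups, that is each gene's count relative to the TMM-scaled library total, did not overlap for 12 of the 32 genes (37.5%), against 60.2% of all genes tested.

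The total held by import transcripts overlapped between the groups. They took 0.218%, 0.224% and 0.216% of the counts in Control replicates 1, 2 and 3, and 0.206%, 0.205% and 0.230% in LPS replicates 1, 2 and 3. LPS replicate 3 had the highest CPM of the LPS libraries for 27 of the 32 genes, and Control replicate 2 the highest of the Control libraries for 20. Without LPS replicate 3, 5 import genes were higher and 6 lower. LPS replicate 2 carried 3.96% of its counts in 24 genes, a seminal vesicle list together with genes that exceeded all remaining libraries by over 32-fold, against at most 0.00496% elsewhere. Without that library 5 import genes were higher and 2 lower, and with the library kept and those 24 genes left out the counts were 7 and 4 as before.

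Some of the cell type marker lists moved with the groups and others overlapped. The summed CPM of 12 proximal tubule markers lay between 49300 and 51700 in Control and between 14500 and 16200 in LPS kidneys, and all 12 markers fell. Kap alone had a mean of 29430 CPM (Control) and 11030 CPM (LPS). Sums of 6 loop of Henle markers were 8440 to 8940 against 4830 to 5050 CPM after LPS, and 5 fell. The other, Umod, did not pass the test and alone had a mean of 4477 CPM (Control) and 4346 CPM (LPS). Distal convoluted tubule sums were 1670 to 1810 against 669 to 1010 CPM, with all 5 markers lower. Collecting duct sums were 835 to 1020 against 550 to 738 CPM, with 7 of 8 lower. Aqp2, the marker that did not pass, had a mean of 415.4 CPM (Control) and 378.7 CPM (LPS). Sums of T and NK cell, B cell and red cell markers were also lower after LPS, without overlap. The sum of 8 neutrophil markers was 3.12 to 3.91 CPM in Control kidneys against 70.7 to 103 CPM after LPS. Of 10 monocyte and macrophage markers 5 rose and 3, Csf1r, Cx3cr1 and Ccr2, fell. Their sum was 138 to 217 CPM in Control and 477 to 640 CPM in LPS libraries, and without Cd14 it was 130 to 209 and 197 to 223 CPM and overlapped. The sums of 6 stromal markers (337 to 567 and 332 to 536 CPM) and of 6 endothelial markers (275 to 348 and 220 to 281 CPM) overlapped too, with 1 and 2 of the 6 genes called. Of 5 podocyte markers 2 were called, with sums of 477 to 522 and 401 to 445 CPM. None of these markers was at 0 in all libraries. Their part in the import results was not tested.

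**Figure D1:**
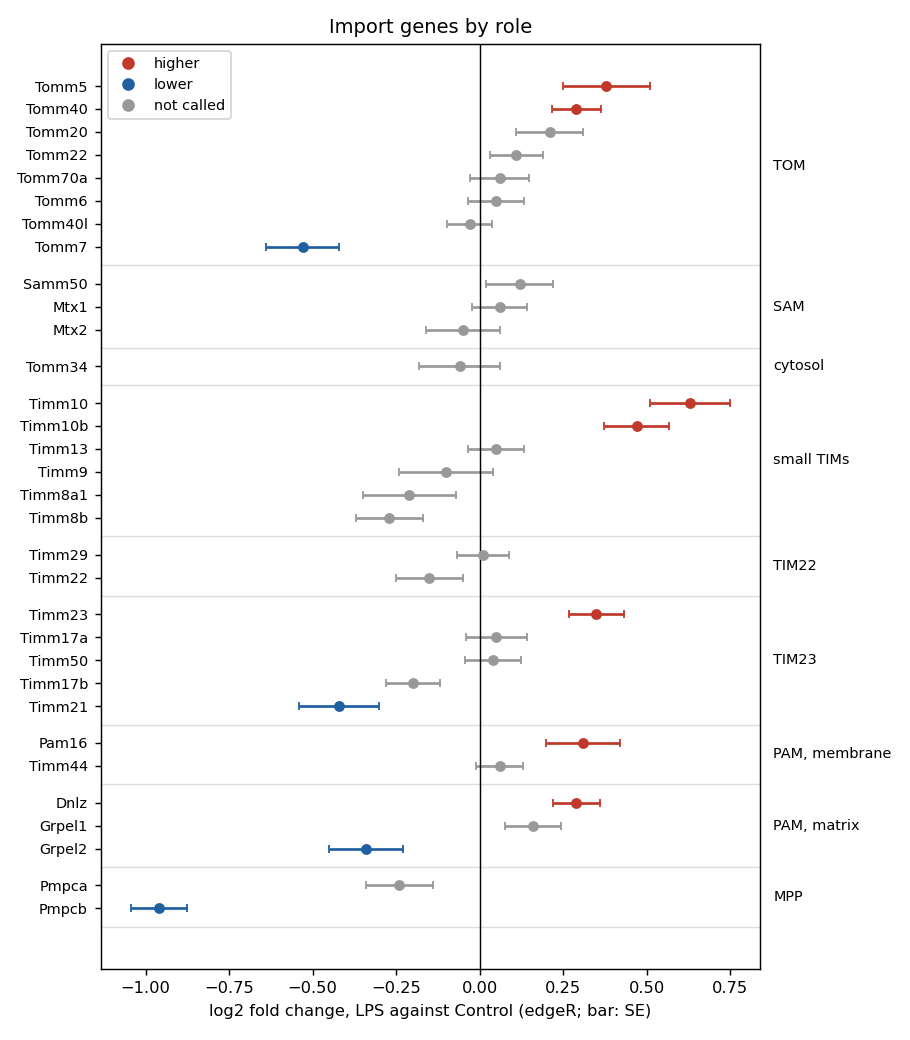
Log2 fold change of each of the 32 tested import genes, LPS against Control, with the standard error as a bar, grouped by role. Red points rose, blue points fell and grey points did not pass the test; Pmpcb lies lowest at -0.96 and Timm10 highest at 0.63.

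The TOM complex is the entry gate. Tomm40 forms its pore, Tomm20, Tomm22 and Tomm70a encode receptors for incoming proteins, and Tomm5, Tomm6 and Tomm7 encode small subunits. Of its 8 tested genes 2 rose and 1 fell (37.5% called, against 50.5% of all genes tested). Their median log2 fold change was 0.08. Tomm40 stood at 58.2, 61.6 and 57.5 CPM in Control and at 67.8, 73.0 and 75.8 CPM in LPS replicates 1 to 3. Each LPS library lay above each Control library, and the log2 fold change was 0.29 ± 0.07 (SE; adjusted p = 0.00946, edgeR). Tomm40l, which encodes a second form of the pore protein, stood at 51.8, 51.3 and 48.1 CPM in Control and at 49.7, 48.9 and 49.0 CPM in LPS libraries, with overlapping groups (-0.03 ± 0.07).

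The small TOM subunits went different ways. Tomm7 stood at 66.8, 67.0 and 65.9 CPM in Control and at 40.3, 44.0 and 54.3 CPM in LPS replicates 1 to 3. Control libraries lay close together, LPS replicate 3 was the nearest to them, and the log2 fold change was -0.53 ± 0.11 (adjusted p = 0.00289, edgeR). Tomm5 stood at 51.4, 50.9 and 45.4 CPM in Control and at 53.2, 61.7 and 77.2 CPM in LPS libraries. LPS replicate 1 was just above the highest Control library and LPS replicate 3 far above it, and the log2 fold change was 0.38 ± 0.13 (adjusted p = 0.034). Its call ended without any one library other than LPS replicate 1, with adjusted p-values of 0.0527 to 0.112 (edgeR), and without LPS replicate 3 the log2 fold change was 0.23. Tomm6 did not pass the test, with 64.7 ± 3.64 CPM in Control kidneys against 67.1 ± 5.55 CPM after LPS (SD, n = 3 per group). Another annotated gene on the same strand covers 81.7% of the Tomm6 exons in GENCODE M21, so the level of Tomm6 is uncertain.

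None of the 3 receptors passed the test. Tomm20 stood at 167, 199 and 208 CPM in Control and at 219, 208 and 240 CPM in LPS libraries, where LPS replicate 2 and Control replicate 3 lay level (0.21 ± 0.10; adjusted p = 0.11, edgeR). Tomm22 had a log2 fold change of 0.11 and Tomm70a one of 0.06. Tomm20l, a second form of Tomm20, had 1 count in Control replicate 3 and none in the other libraries and was not tested.

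The SAM complex, with the insertase Samm50 and the metaxins Mtx1 and Mtx2, held no gene that passed the test, with log2 fold changes of 0.12 ± 0.10, 0.06 ± 0.08 and -0.05 ± 0.11. Samm50 stood at 152, 180 and 163 CPM in Control and at 176, 163 and 197 CPM in LPS libraries. Mtx2 was highest in LPS replicate 3 (80.1 CPM) and Control replicate 1 (78.8 CPM), and its other libraries lay between 61.6 and 69.0 CPM. Mtx1 stood between 40.1 and 43.1 CPM in Control and between 40.9 and 47.9 CPM in LPS libraries. Tomm34, whose symbol follows the rule but whose protein is known as a co-chaperone of the cytosol, stood at 17.8 ± 2.11 CPM in Control kidneys against 17.1 ± 1.36 CPM after LPS and did not pass the test either.

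The small TIM chaperones work as rings of paired subunits, Timm9 with Timm10 and Timm8a1 with Timm13, and Timm10b joins the TIM22 complex at the inner membrane. Of 6 tested genes 2 rose and 0 fell (33.3% called, against 50.5% of all genes tested). Their median log2 fold change was -0.03. Timm10 stood at 13.3, 16.5 and 15.2 CPM in Control and at 20.4, 25.1 and 24.0 CPM in LPS libraries. All LPS libraries lay above all Control libraries, and the gene rose 1.54-fold (log2 fold change 0.63 ± 0.12; adjusted p = 0.00233, edgeR). Timm10b stood at 24.2, 26.7 and 23.8 CPM in Control and at 31.1, 34.2 and 38.3 CPM in LPS libraries, a rise of 1.39-fold (0.47 ± 0.10; adjusted p = 0.00353). The groups did not overlap in either gene. In GENCODE M21 another gene on the same strand covers 10.7% of the Timm10b exons. How reads from that part were counted is not stated in the sources.

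The other small TIM genes did not pass the test. Timm9 stood at 33.7, 32.3 and 35.3 CPM in Control and at 25.5, 30.3 and 38.5 CPM in LPS libraries, where LPS replicates 1 and 2 lay below and LPS replicate 3 above every Control library (-0.10 ± 0.14; adjusted p = 0.556, edgeR). Timm8b, the highest import gene per length at 152.8 ± 15 FPKM in Control kidneys, stood at 85.8, 81.9 and 72.9 CPM in Control and at 63.8, 60.6 and 75.7 CPM in LPS libraries. Its log2 fold change of -0.27 ± 0.10 did not pass (adjusted p = 0.0553), and it passed without LPS replicate 3 (-0.37, adjusted p = 0.0131) or Control replicate 3 (-0.33, adjusted p = 0.0425), in DESeq2 (adjusted p = 0.0439) and among genes with a mean CPM of at least 1 (adjusted p = 0.0477), in a range up to 0.19 over all alternatives. Timm8a1, which encodes the form lost in deafness-dystonia syndrome in people, stood at 20.2, 16.6 and 19.2 CPM in Control and at 13.1, 17.1 and 18.1 CPM in LPS libraries. Its groups overlapped, as did those of Timm13 at 92.9, 93.0 and 83.4 CPM in Control libraries and 88.4, 89.7 and 100.4 CPM in those of the LPS group. Timm8a2 had 1 count, in Control replicate 1, and was not tested.

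The TIM22 complex, which inserts metabolite carriers, was represented by its channel Timm22 and by Timm29, and neither passed the test. Timm22 stood at 36.6, 38.2 and 32.1 CPM in Control and at 30.2, 30.5 and 35.6 CPM in LPS libraries (-0.15 ± 0.10). Timm29 stood at 73.9 ± 5.85 CPM in Control kidneys against 74.3 ± 0.71 CPM after LPS.

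In the TIM23 complex 1 of 5 genes rose and 1 fell (40% called, against 50.5% of all genes tested). Timm23, the channel subunit, stood at 52.4, 55.7 and 54.9 CPM in Control and at 74.2, 62.3 and 70.6 CPM in LPS libraries. Every LPS library lay above every Control library, and the rise was 1.27-fold (0.35 ± 0.08; adjusted p = 0.0066, edgeR). In GENCODE M21, 6 other genes share at least 100 bases at 95% identity or more with its transcript, the longest match covering 95.6% of its length. How reads shared by them were counted is not stated in the sources, and the level of Timm23 is therefore uncertain. Shorter matches were found for Tomm20 (4 genes), Tomm7 (2), Tomm5, Grpel2, Timm8a1, Timm17a and Timm17b (1 each). Timm21, which links TOM to TIM23, stood at 22.7, 24.3 and 24.1 CPM in Control and at 15.9, 16.8 and 20.6 CPM in LPS libraries. It lay lower in all LPS libraries (-0.42 ± 0.12; adjusted p = 0.0145), and the call ended without LPS replicate 2 (adjusted p = 0.0541) or Control replicate 2 (adjusted p = 0.0511). Timm50, the presequence receptor, did not pass, at 67.6 ± 3.27 and 69.4 ± 5.94 CPM in Control and LPS kidneys.

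Timm17a and Timm17b encode alternative subunits of TIM23. Timm17a stood at 77.1, 89.1 and 79.1 CPM in Control and at 82.2, 79.1 and 93.3 CPM in LPS libraries, with a log2 fold change of 0.05. Timm17b stood at 30.6, 34.2 and 30.9 CPM in Control and at 27.0, 27.5 and 28.9 CPM in LPS libraries. Its groups did not overlap, but the difference of -0.20 ± 0.08 did not pass the test (adjusted p = 0.0694, edgeR). It passed with library sizes as the scaling (adjusted p = 0.0489) and in limma on log2(FPKM + 1) and log2(FPKM + 0.1) (adjusted p = 0.0355 in both), in a range up to 0.23.

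The import motor drives presequence proteins into the matrix with the chaperone mortalin. Of its membrane-bound parts, Pam16 stood at 17.2, 18.8 and 20.3 CPM in Control and at 21.6, 22.8 and 25.5 CPM in LPS libraries (0.31 ± 0.11; adjusted p = 0.0348, edgeR). The groups lay side by side without overlap, and the call ended without LPS replicate 2 or 3 or Control replicate 1 or 2, with adjusted p-values of 0.0673 to 0.106. Another annotated gene, which is not among the listed symbols, matches 89.6% of the Pam16 transcript, so its level is uncertain too. Timm44, the anchor of the motor, did not pass (50.5 ± 2.57 and 52.6 ± 1.95 CPM). Dnlz, an escort protein that keeps mortalin soluble, stood at 34.1, 36.1 and 33.4 CPM in Control and at 41.9, 41.0 and 44.2 CPM in LPS libraries, a separation of the groups with a log2 fold change of 0.29 ± 0.07 (adjusted p = 0.00761).

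The nucleotide exchange factors of the motor, Grpel1 and Grpel2, lay on opposite sides. Grpel2 stood at 49.4, 51.4 and 63.1 CPM in Control and at 45.5, 39.6 and 44.3 CPM in LPS libraries and fell by 0.34 on the log2 scale (SE 0.11; adjusted p = 0.0237, edgeR). Control replicate 3 was the highest library by a wide margin, and without it the log2 fold change was -0.22 (adjusted p = 0.0837). Leaving out LPS replicate 2 ended it as well (-0.28, adjusted p = 0.0925). Grpel1 stood at 93.7, 101.5 and 94.9 CPM in Control and at 100.7, 106.3 and 117.9 CPM in LPS libraries and did not pass (0.16 ± 0.09; adjusted p = 0.141), with LPS replicate 1 inside the Control range.

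The processing peptidase showed the largest change among the import genes. Pmpcb, which encodes its catalytic subunit, stood at 214.7, 244.5 and 235.1 CPM in Control and at 118.6, 113.1 and 124.6 CPM in LPS libraries. The groups were far apart, and the level in LPS kidneys was 0.513 times that in Control kidneys (-0.96 ± 0.09; adjusted p = 2.26e-05, edgeR). Per length it was the second import gene in Control kidneys, at 145.3 ± 6.63 FPKM, and the sixth in LPS kidneys, at 74.1 ± 3.36 FPKM. Pmpca, which encodes the partner subunit that binds substrates, stood at 89.5, 105.1 and 97.9 CPM in Control and at 73.6, 81.8 and 92.5 CPM in LPS libraries. LPS replicate 3 lay within the Control range, and the log2 fold change of -0.24 ± 0.10 did not pass (adjusted p = 0.0798). It passed without LPS replicate 3 (-0.33, adjusted p = 0.0253) and in limma on log2(FPKM + 0.1) (adjusted p = 0.0494), in a range up to 0.241. Exons of Inpp5e on the opposite strand cover 25% of the Pmpca exons in GENCODE M21, and Inpp5e fell by 0.40 on the log2 scale. Since no source states whether the counting used strand, reads of both genes cannot be told apart there.

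**Figure D2:**
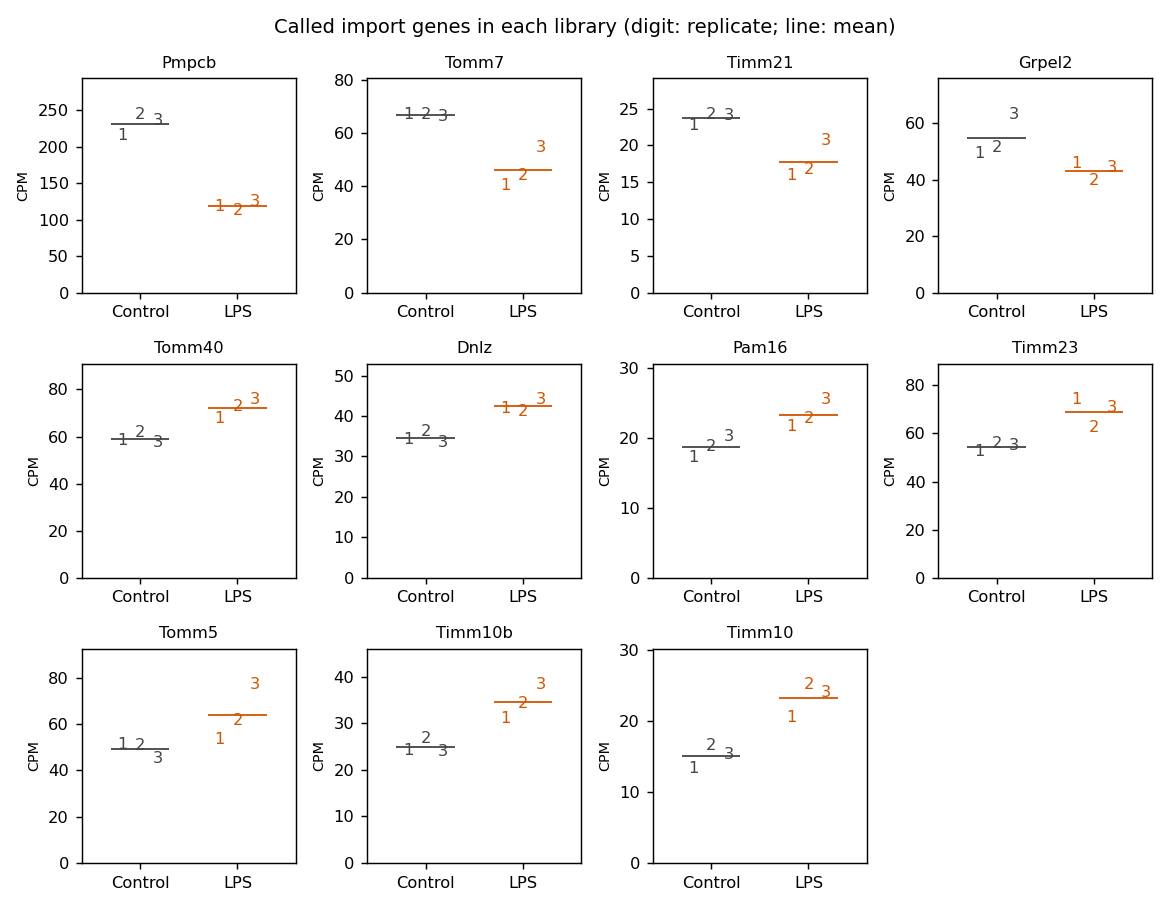
TMM-scaled CPM of the 11 import genes that passed the test, in each library, on axes that start at 0. Digits mark the replicate and lines the mean of 3 libraries; Pmpcb falls from 231.4 to 118.8 CPM, and LPS replicate 3 is the highest LPS library in 8 of the 11 panels.

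Partner genes were compared within each library, where scaling cancels. The log2 ratio of their CPM was taken for 9 pairs and its mean difference between groups tested with a two-sided exact permutation test over the 6 libraries, in which the smallest possible p is 0.1, so none of the pairs can reach 0.05. In 5 pairs the ratio did not overlap between groups, with an exact p of 0.1 each and an adjusted p of 0.18 over the 9 pairs. Of all single genes tested, 60.2% did not overlap, and the share among ratios of other gene pairs was not computed. The ratio of Timm9 to Timm10 differed most, by -0.75 (pooled SD 0.20). In FPKM, Timm9 was 1.15 to 1.49 times as high as Timm10 in Control and 0.71 to 0.943 times as high in LPS libraries. This order depends on the gene lengths behind the FPKM, 1132 bases for Timm9 and 666 for Timm10. In CPM, Timm9 lay above Timm10 in every library, with log2 ratios of 0.32, 0.27 and 0.68 in LPS replicates 1 to 3. The ratio of Pmpca to Pmpcb differed by 0.72 (pooled SD 0.10), from 0.175 to 0.181 in Control to 0.261 to 0.312 in LPS libraries in FPKM. The other 3 pairs without overlap were Grpel1 to Grpel2 (0.50, pooled SD 0.19), Tomm40 to Tomm40l (0.32, pooled SD 0.08) and Timm17a to Timm17b (0.25, pooled SD 0.06).

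The remaining 4 pairs overlapped between the groups. Their differences were 0.11 for Mtx1 to Mtx2, 0.05 for Timm8a1 to Timm8b, -0.27 for Timm8a1 to Timm13 and 0.16 for Tomm20 to Tomm70a, with exact p-values of 0.6, 0.7, 0.3 and 0.3.

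**Figure D3:**
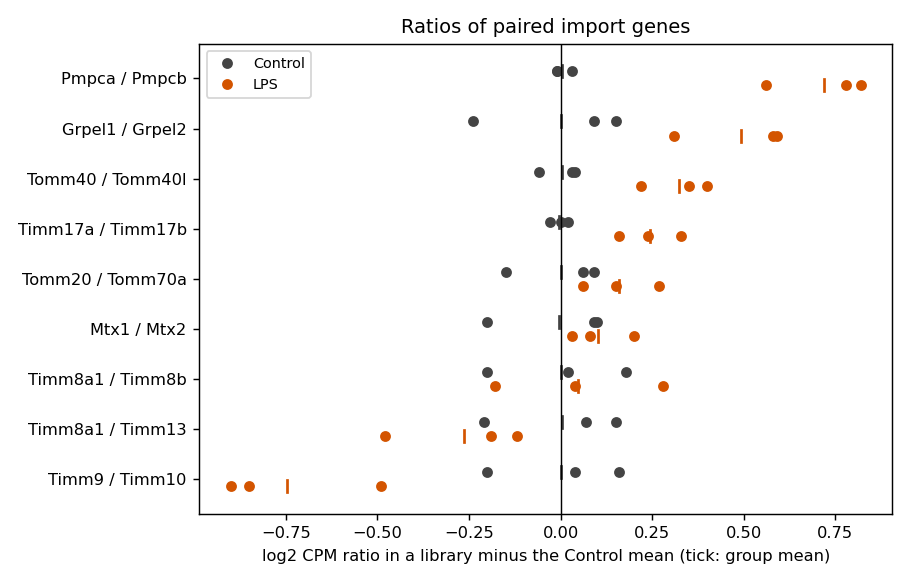
Log2 ratio of the CPM of paired import genes in each library, set to 0 at the Control mean; dots are libraries and short vertical lines group means. The ratios of Pmpca to Pmpcb and of Timm9 to Timm10 lie farthest from 0 in LPS libraries, at 0.72 and -0.75.

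The outer membrane genes were set beside those of the inner membrane by their counts and medians, without a test of the difference. Of 11 tested genes of the outer membrane, the TOM and SAM genes, 2 rose and 1 fell (27.3% called), with a median log2 fold change of 0.06. Of 9 genes of the inner membrane, the TIM22 and TIM23 genes with Timm44 and Pam16, 2 rose and 1 fell (33.3%), with a median of 0.04. Both shares lie below the 50.5% of all genes tested. The summed FPKM of the outer membrane genes was 545, 534.1 and 513.7 in Control and 518.2, 534.9 and 616.1 in LPS replicates 1 to 3. That of the inner membrane genes was 300.8, 315 and 294.7 in Control and 319.7, 307.2 and 341.9 in LPS replicates. Outer over inner gave 1.81, 1.70 and 1.74 in Control and 1.62, 1.74 and 1.80 in LPS libraries, which overlapped. The 5 matrix genes, the motor parts Dnlz, Grpel1 and Grpel2 with both peptidase subunits, summed to 225.5 ± 8.94 FPKM in Control and 153.1 ± 7.46 FPKM in LPS kidneys without overlap, and Pmpcb alone made up 145.3 and 74.1 FPKM of these sums.

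Sequences just before the start of 4 of these genes are shown because they belong to the pairs of partners whose ratios moved farthest. Each is the last 120 bases before the annotated start in RefSeq on GRCm38.p6, read 5′ to 3′ on the strand of the gene. Capitals mark matches to CCGGAAG, a form of the site bound by ETS factors such as GABPA, on either strand. They also mark the E-box CACGTG, the letters bound by MYC and related factors. Other forms of the ETS site, such as gcggaag near the end of the Pmpca stretch, are not marked.
Pmpcb (chr5:21737040-21737159, + strand): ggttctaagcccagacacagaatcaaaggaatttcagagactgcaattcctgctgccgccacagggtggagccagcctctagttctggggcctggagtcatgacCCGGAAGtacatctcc
Pmpca (chr2:26389228-26389347, + strand): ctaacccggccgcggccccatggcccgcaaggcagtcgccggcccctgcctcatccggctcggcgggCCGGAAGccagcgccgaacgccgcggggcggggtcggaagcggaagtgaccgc
Timm10 (chr2:84826901-84827020, + strand): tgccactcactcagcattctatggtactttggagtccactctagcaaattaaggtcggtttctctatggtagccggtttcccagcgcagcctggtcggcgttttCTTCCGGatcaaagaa
Timm9 (chr12:71136676-71136795, - strand): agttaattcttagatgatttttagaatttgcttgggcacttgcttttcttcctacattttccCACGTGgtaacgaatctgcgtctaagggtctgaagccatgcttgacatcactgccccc
The marked ETS letters begin 16 bases before the start in both Pmpcb, which fell, and Timm10, which rose. In Pmpca they begin 53 bases before the start.

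Across the 250 bases before the start, 30 of the 34 import genes had an entry, Grpel2, Timm21, Tomm40l and Tomm7 being without one. CCGGAAG or its reverse complement was found in 13 of the 30 (43.3%), against 12.8% of 11291 promoters of genes tested. It was found in 2 of 7 genes that rose, in the only entry of a gene that fell, in 9 of 20 that did not pass the test, and in Timm8a2, which was not tested. The E-box CACGTG was found in 4 of the 30 (13.3%, against 8.1%), among them Tomm20l, which was not tested. The NRF1 letters GCATGCGC were found in 2, Grpel1 and Timm13 (6.7%, against 4.1%), and the YY1 letters AAGATGGC in none (against 1.8%). Each was sought on both strands as exact letters, so other forms of a site were not counted. A match to these letters does not show binding.

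Other genes of the pathway and of the organelle were read from lists of 50 genes. Of 18 import partners outside the rule 3 rose and 8 fell (61.1% called, where 50.5% of all genes tested were), with a median log2 fold change of -0.19. Mipep, the peptidase that trims some presequences after MPP, fell from 54.6 ± 2.55 to 29.7 ± 1.71 CPM (-0.88 ± 0.08; adjusted p = 2e-05, edgeR). Dnajc19, a J-protein related to the motor co-chaperones, fell from 67.0 ± 2.81 to 36.6 ± 6.65 CPM (-0.87 ± 0.12; adjusted p = 0.000347). Dnajc11, a J-protein that associates with the SAM complex and the inner membrane scaffold, rose from 60.8 ± 0.925 to 86.6 ± 8.61 CPM (0.51 ± 0.08; adjusted p = 0.000991). Also named, after their values were seen, are the matrix chaperonin genes Hspd1 and Hspe1, which fell by 0.53 and 0.71 on the log2 scale, and Hspa9, which encodes mortalin and did not pass (-0.16).

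Further lists covered other parts of the organelle. Of 10 genes of the outer membrane channels and of the inner membrane scaffold MICOS, 0 rose and 8 fell (80% called), with a median of -0.56. Among them Apoo fell from 79.3 ± 5.98 to 38.4 ± 0.761 CPM, the channel Vdac1 from 830.7 ± 25.3 to 504.9 ± 29.4 CPM and Micos10 from 124.7 ± 7.85 to 81.3 ± 6.32 CPM. The channels Vdac2 (0.01) and Vdac3 (0.17) did not pass. Of 8 mitochondrial proteases 0 rose and 1 (12.5%), Spg7, fell (-0.48 ± 0.10; adjusted p = 0.00356, edgeR), while Lonp1 (-0.17) and Parl (0.15) did not pass. Of 14 regulators of mitochondrial biogenesis and stress 4 rose and 4 fell (57.1% called, near the 50.5% of all genes tested). The largest were rises of Myc, from 6.45 ± 0.591 to 39.0 ± 2.01 CPM, of Atf5, a stress-responsive transcription factor, from 17.8 ± 2.13 to 53.8 ± 4.21 CPM, and of the coactivator Pprc1, from 13.95 ± 1.92 to 27.8 ± 1.05 CPM. The 4 that fell were Esrra (-0.65), Tfam (-0.38), Tfb2m (-0.32) and Gabpa (-0.29). Whether the import genes differ from these lists was not tested.

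**Figure D4:**
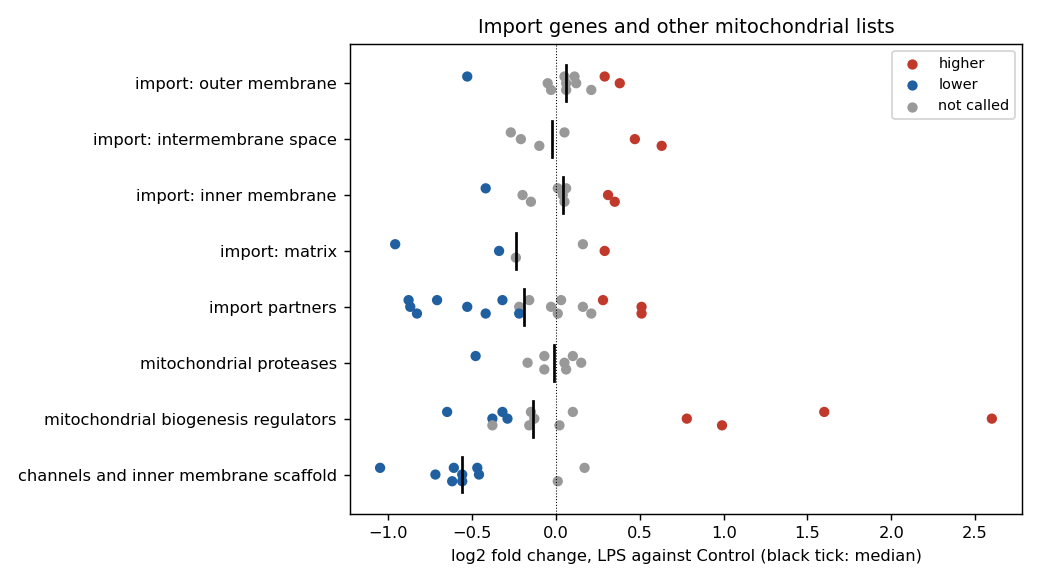
Log2 fold changes of the tested import genes by location and of 4 other lists of mitochondrial genes, LPS against Control; each dot is a gene and black ticks are medians. The outer and inner membrane medians are 0.06 and 0.04, and that of the channels and inner membrane scaffold is -0.56.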

How the data were processed

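For each of the 6 kidney libraries the authors deposited raw counts and FPKM, by gene symbol. Per the submitters' processing notes the tools included R 3.2.0, DESeq2, HTSeq, HISAT2 and SAMtools, without their roles. Build, annotation and strand setting: not given in the sources used here. The deposited FPKM equal the count divided by a gene length and the library total in 97602 of 97605 values above 0, within a relative tolerance of 1e-06.

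The test of LPS against Control was the two-sided quasi-likelihood test of edgeR 4.0.16 (R 4.3.3), after filterByExpr (minimum count 10, minimum total 15) and TMM scaling, with Benjamini-Hochberg adjustment over 14219 genes. CPM are TMM-scaled, given as mean ± SD over 3 libraries. Ratios of pairs are log2 CPM with a prior count of 2. In simulated LPS against Control counts of 13931 genes, 99 were changed 1.5-fold, 49 were changed 2-fold and 48 were changed 4-fold. Of these, 41.4% of 1.5-fold and 73.5% of 2-fold changes were recovered, and 13 of 135 calls were unchanged genes. The share of changed genes was far below the 50.5% called in the data, which made the adjusted threshold stricter in the simulation. No library duplicated another (lowest chi-square per degree of freedom 11.1). The design text counts 3 mice a group.

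All import genes are named. Of other mitochondrial lists, the 3 genes with the smallest p are named, and some further genes after their values were seen. Members, roles, pairs and lists were chosen with earlier results of these data known, and the motifs after the values were seen. Alternatives were RLE factors or library sizes as scaling, other filters, DESeq2 1.42.0, limma 3.58.1 (voom, log2(FPKM + 1), log2(FPKM + 0.1)), the replicate number as a block, leaving out each library, and, chosen after seeing the data, leaving out 24 genes high in LPS replicate 2 alone.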

Additional observations from a re-analysis of the deposited data

How the results depend on the processing

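The median of all genes moved by at most 0.02 (log2) under any scaling or filter. With the replicate number as a block, 7 import genes were higher and 4 lower as without it. Same-numbered libraries deviated with correlations of 0.0478, -0.0535 and -0.002, which gave no sign of pairing. With 3 libraries a group this cannot show that the mice were unpaired. Leaving out 1 library gave 5 to 7 higher and 2 to 6 lower import genes, 3077 to 3666 higher and 3010 to 3490 lower genes in all, and medians of 0 to 0.12 for outer and -0.02 to 0.08 for inner membrane genes. The lowest count of lower genes, 2, came without LPS replicate 2. The ratio of Timm8a1 to Timm8b ran from -0.07 without LPS replicate 2 to 0.16.

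Among single genes the sign turned only for genes that passed no test. Leaving out 1 library, log2 fold changes ran from -0.02 to 0.10 for Mtx1, -0.16 to 0.03 for Mtx2, -0.01 to 0.09 for Timm13, -0.02 to 0.12 for Timm17a, -0.05 to 0.07 for Timm29, -0.03 to 0.09 for Timm50, -0.27 to 0.03 for Timm9, -0.13 to 0.04 for Tomm34, -0.01 to 0.11 for Tomm6 and 0.00 to 0.12 for Tomm70a. Timm29 came to 0.00 with library sizes as scaling and with a mean CPM of at least 1. Of the 11 calls, those of Pmpcb, Timm10, Timm10b, Timm23, Tomm7, Tomm40 and Dnlz held under all 16 alternatives. Tomm5 also missed the threshold in limma on log2(FPKM + 1) (adjusted p = 0.0551). At these depths 41.4% of simulated 1.5-fold changes over all genes were recovered, and smaller changes were not simulated. Far fewer genes were changed in the simulation than were called in the data, so this share does not give the power of the test here.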
